A study of Mus musculus with 7 samples.

Results

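Among the genes counted in mouse retina, 2715 were annotated as antisense, that is, as noncoding genes transcribed from the strand opposite to a known gene, and 259 of them reached a mean of at least 1 CPM (counts scaled to 1000000 counts of the library) over all 7 libraries. These 259 antisense transcripts, chosen by that mean alone, were taken from a table of 52550 genes and were each set beside the protein-coding gene that they overlapped. Because a mean over both genotypes selected them, 220 had at least 1 CPM in the mean of each genotype, 27 only in the WT mean and 12 only in the SCA7 mean. The transcripts just above the limit were *Gm7008* and *Zmiz1os1* (mean 1.00 CPM each) and *D830035M03Rik* (1.03 CPM), and those just below were *BC048559* (0.993 CPM), *4930515G01Rik* (0.983 CPM) and *2900060B14Rik* (0.973 CPM).

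The study compared WT mice with SCA7 140Q/140Q mice, a knock-in model of spinocerebellar ataxia type 7 in which both *Atxn7* alleles carry an expanded CAG repeat under the gene's own promoter. All mice had the C57BL/6J background and were 12.5 weeks old, and the labels name no treatment. Each library held total RNA of 2 retinas of a single mouse, with 4 WT and 3 SCA7 mice, and was made with a stranded protocol after removal of ribosomal RNA, so that transcripts without a poly(A) tail were counted too. The whole retina was sampled, so fewer cells of a type and less RNA per cell cannot be told apart in any value below.

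Antisense transcripts overlap another gene in the opposite orientation, at its start, at its end or within its body. Some silence or tune the gene they overlap or its neighbours, as the imprinted *Kcnq1ot1* and *Airn* do, many arise from a promoter that fires in both directions, and for most no function is known. In the retina, several are transcribed beside the homeobox genes that pattern the eye, among them *Vax2os*, *Pax6os1* and *Six3os1*, and *Tug1* is known for its part in photoreceptor differentiation.

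Start windows of 6 of the transcripts are printed here because the results below return to them. They come from RefSeq on the GRCm38.p6 assembly, the same primary assembly as the mm10 coordinates of the counts, and run 5′ to 3′ from 250 bases before to 50 bases from the annotated start. The first 4 belong to transcripts with lower levels in SCA7. They were chosen after the search from the 10 that held the marked letters, out of 32 downregulated transcripts with a window. Capitals mark TAATCC or its reverse complement GGATTA, the core letters bound by CRX-type homeodomain proteins, the regulators of photoreceptor genes. The windows of *Vax2os*, lower in SCA7, and of *Fgf2os*, higher in SCA7, hold neither, but the RefSeq start of *Fgf2os* is 101 bases upstream of the start of the counted gene, which lies outside that window.
E130304I02Rik (chr7:35802342-35802641, plus strand): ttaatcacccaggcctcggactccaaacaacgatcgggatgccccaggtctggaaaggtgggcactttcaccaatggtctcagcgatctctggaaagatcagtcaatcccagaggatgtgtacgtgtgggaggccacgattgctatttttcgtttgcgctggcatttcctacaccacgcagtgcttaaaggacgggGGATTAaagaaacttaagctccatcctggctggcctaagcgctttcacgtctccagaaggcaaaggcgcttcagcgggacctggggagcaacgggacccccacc
Pitpnm2os2 (chr5:124194650-124194949, plus strand): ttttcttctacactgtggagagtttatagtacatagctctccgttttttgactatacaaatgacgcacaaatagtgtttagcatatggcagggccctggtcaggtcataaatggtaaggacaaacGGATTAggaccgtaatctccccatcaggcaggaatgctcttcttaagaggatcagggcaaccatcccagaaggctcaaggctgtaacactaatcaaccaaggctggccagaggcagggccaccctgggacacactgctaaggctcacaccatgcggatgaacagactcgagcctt
A930041C12Rik (chr5:107633801-107634100, minus strand): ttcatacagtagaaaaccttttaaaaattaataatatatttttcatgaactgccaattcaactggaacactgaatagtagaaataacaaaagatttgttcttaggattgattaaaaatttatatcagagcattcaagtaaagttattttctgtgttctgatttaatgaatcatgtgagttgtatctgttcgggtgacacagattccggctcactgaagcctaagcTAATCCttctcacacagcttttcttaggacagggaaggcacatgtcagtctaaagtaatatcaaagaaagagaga
AI847159 (chr2:129180624-129180923, minus strand): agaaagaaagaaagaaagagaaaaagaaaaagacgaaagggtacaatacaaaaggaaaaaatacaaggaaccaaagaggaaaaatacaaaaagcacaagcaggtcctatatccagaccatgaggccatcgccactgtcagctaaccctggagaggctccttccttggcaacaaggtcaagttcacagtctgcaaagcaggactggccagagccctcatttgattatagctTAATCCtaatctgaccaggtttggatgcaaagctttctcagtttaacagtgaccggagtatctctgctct
Vax2os (chr6:83712152-83712451, minus strand): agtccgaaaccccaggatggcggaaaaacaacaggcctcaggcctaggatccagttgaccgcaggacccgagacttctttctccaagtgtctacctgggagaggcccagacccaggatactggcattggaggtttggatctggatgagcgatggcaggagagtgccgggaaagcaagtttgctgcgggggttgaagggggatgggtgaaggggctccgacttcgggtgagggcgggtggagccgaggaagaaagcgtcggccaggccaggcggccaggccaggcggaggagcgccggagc
Fgf2os (chr3:37349792-37350091, minus strand): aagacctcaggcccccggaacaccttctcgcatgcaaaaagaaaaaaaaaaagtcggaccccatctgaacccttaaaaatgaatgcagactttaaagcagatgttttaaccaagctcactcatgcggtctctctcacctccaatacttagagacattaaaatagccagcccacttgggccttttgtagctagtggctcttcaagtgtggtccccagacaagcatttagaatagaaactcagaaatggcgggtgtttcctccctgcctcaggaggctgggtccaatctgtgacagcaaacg

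Libraries held between 56497675 and 96635832 counts, and the 259 transcripts together took between 0.144% and 0.178% of the counts in WT and between 0.140% and 0.146% in SCA7. As a description over these transcripts, pairs of WT libraries correlated at 0.976 to 0.986 on the log2 scale, pairs of SCA7 libraries at 0.983 to 0.990, and pairs across genotypes at 0.819 to 0.869. All 10 rod and all 10 cone marker genes were downregulated, and the summed level of the rod markers went from between 61671 and 63914 CPM in the WT libraries to between 16813 and 21603 CPM in the SCA7 libraries. All 12 microglia and 7 of the 8 reactive glia markers were upregulated, with microglia sums of 83.6 to 106 CPM in WT and 180 to 201 CPM in SCA7. Summed markers of endothelium and pericytes were also higher in every SCA7 library (401 to 449 against 304 to 350 CPM), and those of amacrine cells (868 to 950 against 1021 to 1199 CPM), horizontal cells (170 to 179 against 194 to 221 CPM) and pigment epithelium (491 to 512 against 574 to 648 CPM) were lower. Few of these markers were called, with 2 of 8 of endothelium and pericytes upregulated, 1 of 10 amacrine downregulated and 0 of 5 tested horizontal. Of the 9 pigment epithelium markers, 2 were downregulated and 1 upregulated, and their median log2 fold change was 0.08. Lens markers ranged from 50.6 to 640 CPM in WT and from 36.2 to 1029 CPM in SCA7, and the part of these cell types in the changes below was not tested.

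The sources used here do not state whether reads were counted by strand. In the counts, 105 of 139 genes (75.5%) lying wholly within exons of an opposite-strand gene held at least 1 count, against 36 of 155 genes (23.2%) lying within exons of a gene on the same strand. At least 10 counts were held by 46 and 17 of them, and the medians were 3 and 0 counts. Counts of the 139 genes had a median of 0.0106% of those of the opposite gene, and in 9 of 10 cases were under 0.434%. A low share cannot by itself show that strands were counted apart, since the same-strand genes had a median share of 0%. Of the 224 antisense transcripts tested together with their partner, 7 had fewer counts than 0.434% of the partner's, with *Gm7616*, *Dgkeos* and *Gm16401* among those named below. The part of stray reads of the partner in their counts was not tested.

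**Figure D1:**
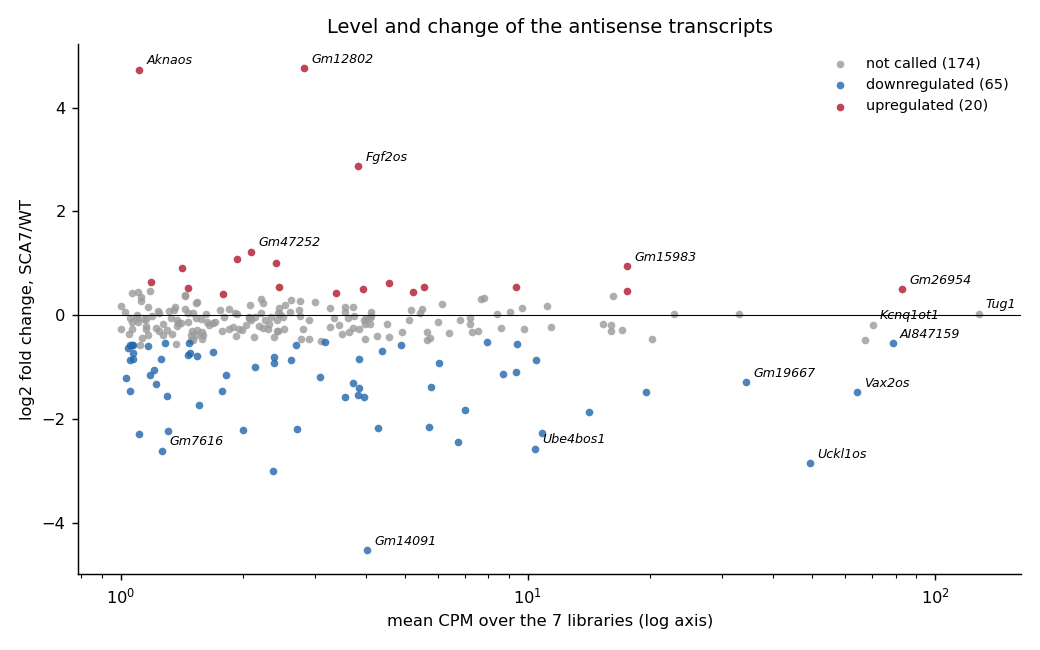
Each point is an antisense transcript, with its mean CPM over the 7 libraries on a log axis and its log2 fold change (SCA7/WT) from edgeR. Blue points mark the 65 downregulated, red points the 20 upregulated and grey points the 174 transcripts not called, and the downregulated transcripts have means between 1.03 and 78.7 CPM.

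In SCA7 retina, 65 of the 259 antisense transcripts (25.1%) were downregulated and 20 (7.72%) were upregulated. A call needed an adjusted p under 0.05 in the quasi-likelihood test of edgeR, Benjamini-Hochberg adjusted over 20128 genes, and an FC (SCA7 over WT) below 0.7 for downregulated or above 1.3 for upregulated transcripts. By the same rule, 7.91% of all genes tested were downregulated and 7.47% upregulated, and among protein-coding genes with at least 1 CPM the shares were 5.43% and 8.67%. Long intergenic noncoding RNAs (lincRNAs) with at least 1 CPM had 22.0% downregulated and 5.28% upregulated, and antisense genes tested below 1 CPM had 9.89% and 4.30%. The median log2 fold change of the 259 transcripts was -0.19 (quartiles -0.53 and 0.04), with 181 values below and 78 above 0, whereas the median was -0.02 over all genes tested, 0.03 over protein-coding genes with at least 1 CPM and -0.25 over lincRNAs with at least 1 CPM.

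Of the transcripts with 1 CPM in the mean of each genotype, 41 of 220 were downregulated and 15 were upregulated. Of the 27 that reached 1 CPM only in WT, 24 were downregulated, and of the 12 that did so only in SCA7, 5 were upregulated, a direction that the choice of these groups favours. Every SCA7 library was below every WT library for 95 of the 259 transcripts, against 18.3% of all genes tested, and above every WT library for 24, against 19.3%. The groups did not overlap for 62 of the 65 downregulated and 19 of the 20 upregulated transcripts, an outcome that the call itself favours. The decrease was 1 or more on the log2 scale in 36 of the downregulated transcripts, and 5 of the upregulated ones rose by 1 or more. A further 17 transcripts had an adjusted p under 0.05 with a change inside the FC limits.

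The 10 most abundant antisense transcripts took 41.4% of the summed CPM of all 259. *Tug1*, the most abundant, showed no called change (log2 fold change 0.02, adjusted p = 0.85), with 126 ± 12.8 CPM in the 4 WT libraries and 129 ± 3.79 CPM in the 3 SCA7 libraries (mean ± SD). *Rab10os*, opposite the small GTPase gene *Rab10*, and *4933431E20Rik*, opposite *Eps8l3*, were likewise not called, at 0.02 and 0.02. Both differed between genotypes by less than the SD of the WT libraries.

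The largest decrease among the 10 most abundant was that of *Uckl1os* (chromosome 2 from 181578480 to 181585170, plus strand), which starts within the uridine-cytidine kinase-like gene *Uckl1* on the other strand and runs past the start of that gene. It measured 81.4, 79.1, 77.2 and 88.1 CPM in the WT libraries and 8.91, 11.9 and 12.7 CPM in the SCA7 libraries (log2 fold change -2.86, standard error 0.11, adjusted p = 3.0e-08). The lowest WT library was thus far above the highest SCA7 library. *Uckl1* itself fell less, with 212, 204, 178 and 192 CPM in WT and 62.8, 73.6 and 74.0 CPM in SCA7 (log2 fold change -1.48, adjusted p = 2.1e-07).

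*Vax2os* (chromosome 6 from 83692806 to 83712201, minus strand) begins head to head with *Vax2*, the homeobox gene of the ventral eye. It had 117, 89.7, 76.6 and 81.1 CPM in the WT libraries and 31.9, 36.6 and 28.8 CPM in the SCA7 libraries (log2 fold change -1.49, standard error 0.15, adjusted p = 1.9e-04), with no overlap between the genotypes and WT replicate 1 highest. *Vax2* was not called (log2 fold change -0.14, adjusted p = 0.3), with 29.4, 30.3, 35.1 and 24.6 CPM in WT and 26.7, 26.8 and 27.6 CPM in SCA7.

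*Gm19667* (chromosome 9 from 105470520 to 105480194, plus strand) lies within *Atp2c1*, the gene of a Golgi pump for calcium and manganese, without sharing exon bases with it. Its level went from 47.0 ± 6.69 to 19.2 ± 1.24 CPM (mean ± SD, WT with n = 4 to SCA7 with n = 3, as in all values of this form) (log2 fold change -1.29, standard error 0.10, adjusted p = 4.6e-06), and the lowest WT library had 39.3 CPM against 20.5 CPM in the highest SCA7 library. *Atp2c1* was not called (-0.16, adjusted p = 0.053).

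*AI847159* (chromosome 2 from 129158666 to 129180667, minus strand), whose start window is printed above, has no overlapping protein-coding partner and no such start within 5 kb. It had 101, 92.6, 88.1 and 85.2 CPM in the WT libraries and 55.8, 65.5 and 67.7 CPM in the SCA7 libraries (log2 fold change -0.54, standard error 0.08, adjusted p = 4.0e-04). Its groups did not overlap, but its FC is near the limit of 0.7, and the call was lost without WT replicate 1 (log2 fold change -0.49) or without SCA7 replicate 1 (-0.46). *1110002L01Rik*, at the 3′ end of the kinesin gene *Kif3c*, had 79.9, 85.9, 75.6 and 68.8 CPM in the WT libraries and 52.6, 56.3 and 57.0 CPM in the SCA7 libraries. Its log2 fold change of -0.49 (adjusted p = 5.0e-04) was just inside the FC limit, and without WT replicate 4 it was called downregulated (-0.54, adjusted p = 6.3e-05).

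Of the 10 most abundant, *Gm26954* was the member that was upregulated. It lies within *Pclo*, the gene of the presynaptic scaffold protein Piccolo, and measured 78.4, 64.9, 72.1 and 63.2 CPM in the WT libraries and 87.4, 101 and 106 CPM in the SCA7 libraries (log2 fold change 0.50, standard error 0.09, adjusted p = 0.0012). *Pclo* stayed at 0.04 (adjusted p = 0.73), and per kb of exon the antisense transcript was 21.3 times as high as *Pclo* in WT.

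**Figure D2:**
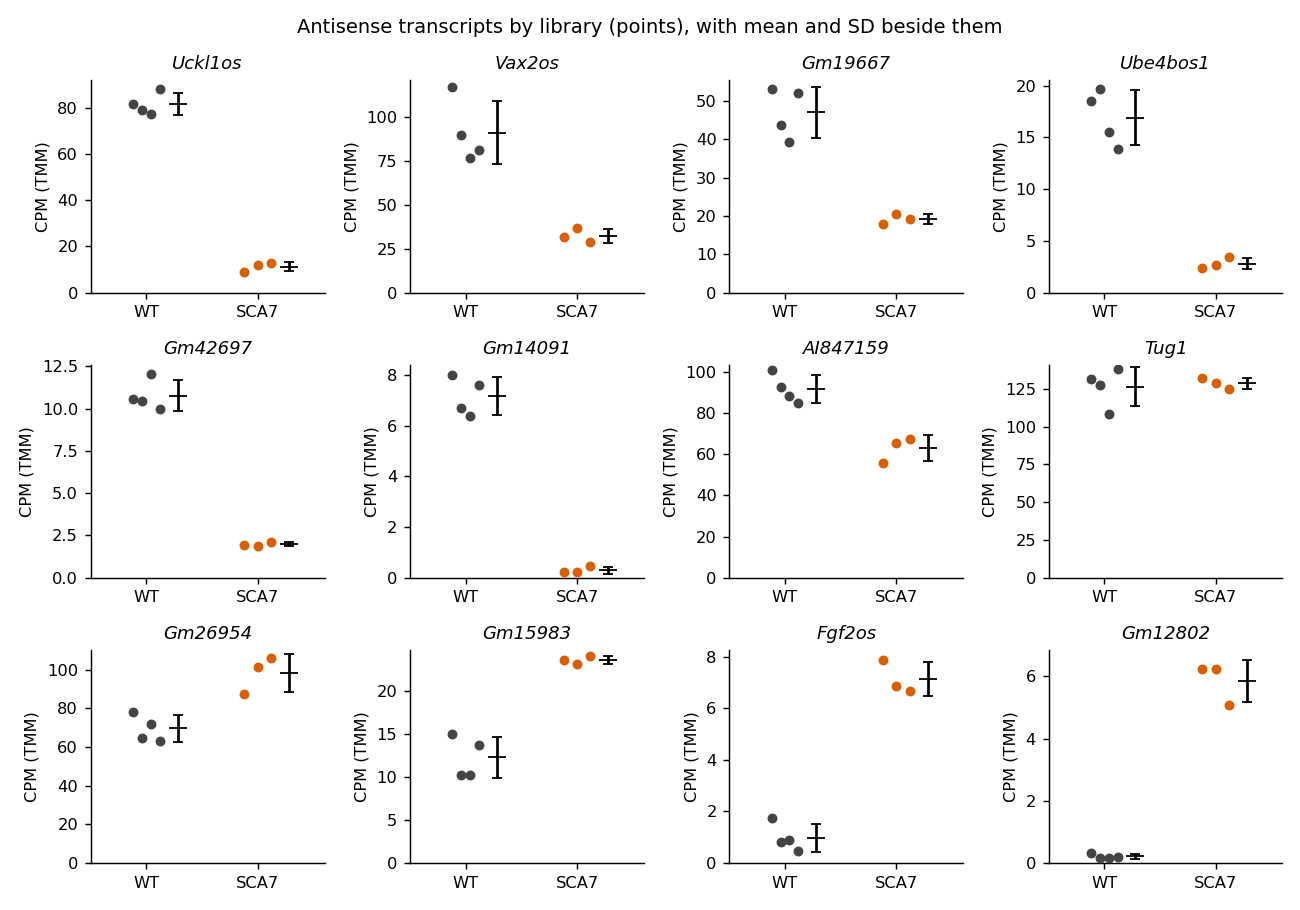
CPM of 12 antisense transcripts (TMM-normalized, each panel with its own axis from 0), with a point per library and the mean ± SD beside it. In the 7 panels from Uckl1os to AI847159 all SCA7 libraries are below all WT libraries, in the Tug1 panel the groups overlap, and in the last 4 panels all SCA7 libraries are above all WT libraries.

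The largest decrease was that of *Gm14091*, inside the gene of the mitotic spindle protein *Knstrn*. Its libraries held 469, 479, 340 and 498 counts in WT and 13, 18 and 48 counts in SCA7, with no overlap. In WT it was 19.1 times as high per kb of exon as *Knstrn*, which itself measured 2.68, 2.35, 2.29 and 1.53 CPM in WT and 1.14, 1.61 and 1.62 CPM in SCA7 (log2 fold change -0.59, adjusted p = 0.042). The log2 ratio of the antisense transcript to *Knstrn* fell by 3.97 (adjusted p = 3.0e-07, limma over all opposite-strand pairs).

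*1700119H24Rik* (chromosome 16 from 34935854 to 34939329, minus strand) lies within *Mylk*, the gene of myosin light chain kinase. It had 3.72, 4.50, 3.54 and 4.01 CPM in the WT libraries and 0.455, 0.434 and 0.573 CPM in the SCA7 libraries (log2 fold change -3.00, standard error 0.16, adjusted p = 1.8e-07). *Mylk* was also downregulated, at -0.98 (adjusted p = 3.4e-06), with 71.6, 76.0, 62.9 and 80.8 CPM in WT and 36.6, 37.3 and 36.7 CPM in SCA7. Both genes separated the genotypes in every library.

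*Gm7616* (chromosome 9 from 59951285 to 59959044, plus strand) lies within *Nr2e3*, the gene of a nuclear receptor that sets rod against cone identity. It was the sole antisense transcript here whose partner is on the study's list of photoreceptor specific genes. Its libraries held 2.63, 1.57, 1.88 and 2.17 CPM in the WT libraries and 0.211, 0.398 and 0.369 CPM in the SCA7 libraries (log2 fold change -2.61, standard error 0.24, adjusted p = 1.1e-05). *Nr2e3* had 812, 835, 699 and 923 CPM in WT and 381, 517 and 454 CPM in SCA7 (log2 fold change -0.86, adjusted p = 1.9e-04). The counts of *Gm7616* were 0.186% of those of *Nr2e3*, under the 0.434% given above, although their exons share no bases.

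*Ube4bos1* (chromosome 4 from 149347885 to 149365277, plus strand) and *Ube4bos3* both lie within *Ube4b*, the gene of a ubiquitin ligase. *Ube4bos1* had 18.6, 19.7, 15.5 and 13.8 CPM in the WT libraries and 2.34, 2.65 and 3.43 CPM in the SCA7 libraries (log2 fold change -2.58, standard error 0.16, adjusted p = 7.5e-07), and *Ube4bos3*, which was not among those named by rule, went from 1.58 ± 0.240 to 0.756 ± 0.0542 CPM (log2 fold change -1.06, standard error 0.17, adjusted p = 6.3e-04). *Ube4b* did not fall, with 56.0, 57.7, 52.5 and 60.6 CPM in WT and 69.1, 65.8 and 67.4 CPM in SCA7 (log2 fold change 0.25, adjusted p = 0.0092, inside the FC limits). All 3 SCA7 libraries of both antisense transcripts were below all 4 WT libraries, whereas those of *Ube4b* were above.

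*Gm42697*, inside the growth factor gene *Egf*, had 10.6, 10.5, 12.1 and 9.97 CPM in the WT libraries and 1.95, 1.87 and 2.10 CPM in the SCA7 libraries (log2 fold change -2.44, standard error 0.10, adjusted p = 3.2e-08), and the SCA7 libraries lay close together far below WT. *Egf* was not called, at -0.30 (adjusted p = 0.13). *Gm17231*, at the 3′ end of *Arid3b*, the gene of a DNA-binding protein, went from 17.1 ± 2.19 to 3.53 ± 0.669 CPM (log2 fold change -2.27, standard error 0.14, adjusted p = 6.8e-07), with *Arid3b* at -0.09.

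The 10 largest decreases were completed by *Gm35715*, *Gm16346* and *E130304I02Rik*. *Gm35715*, within *Ccdc12*, went from 2.05 ± 0.123 to 0.430 ± 0.100 CPM (log2 fold change -2.23, adjusted p = 3.3e-06), and *Ccdc12* stayed at -0.06. *Gm16346*, within *Csmd1*, the gene of a membrane protein that regulates complement, went from 1.75 ± 0.284 to 0.348 ± 0.0760 CPM (-2.29, adjusted p = 8.1e-06), and *Csmd1* fell too, by 0.91 on the log2 scale (adjusted p = 1.7e-05).

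*E130304I02Rik*, whose start window is the first printed above, begins head to head with the zinc finger gene *Zfp507*, with starts 411 bases apart. It had 3.11, 3.15, 3.90 and 2.40 CPM in the WT libraries and 0.585, 0.727 and 0.690 CPM in the SCA7 libraries (log2 fold change -2.22, standard error 0.18, adjusted p = 4.0e-06). *Zfp507* had a log2 fold change of 0.01 (adjusted p = 0.95), and the log2 ratio of the pair changed by -2.18 (standard error 0.21, adjusted p = 7.1e-06).

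Increases were fewer. The 2 largest were those of *Gm12802*, at the 3′ end of *Tceanc2*, and of *Aknaos*, within *Akna*, the gene of a centrosomal protein. The libraries of *Gm12802* held 19, 12, 9 and 13 counts in WT and 384, 533 and 522 counts in SCA7, and those of *Aknaos* 6, 7, 3 and 5 counts in WT and 192, 164 and 192 counts in SCA7. Neither overlapped between genotypes, and the WT values rest on few counts. Their partners were not called, with log2 fold changes of 0.17 for *Tceanc2* and -0.21 for *Akna*.

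*Fgf2os* (chromosome 3 from 37335332 to 37349740, minus strand) begins head to head with *Fgf2*, the gene of a growth factor known to rise in injured retina. It measured 1.74, 0.825, 0.881 and 0.459 CPM in the WT libraries and 7.88, 6.84 and 6.67 CPM in the SCA7 libraries (log2 fold change 2.88, standard error 0.33, adjusted p = 4.7e-04), with the highest WT library well below the lowest SCA7 library. *Fgf2* had 22.5, 19.9, 22.6 and 24.1 CPM in WT and 188, 154 and 161 CPM in SCA7 (log2 fold change 2.91, adjusted p = 1.7e-09). The log2 ratio of this pair changed by 0.07 (standard error 0.37, adjusted p = 0.91) and its libraries overlapped between genotypes. With this standard error, the ratio neither passed the test nor shows that both genes changed alike.

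*Gm15983*, which begins head to head with *Eef2kmt*, the gene of a methyltransferase of elongation factor 2, was upregulated. It had 15.0, 10.2, 10.3 and 13.7 CPM in the WT libraries and 23.6, 23.1 and 24.0 CPM in the SCA7 libraries (log2 fold change 0.94, standard error 0.12, adjusted p = 2.1e-04), and *Eef2kmt* stayed at 0.04. *Gm16062*, at the 3′ end of the COP9 signalosome gene *Cops3*, went from 3.65 ± 0.708 to 5.62 ± 0.359 CPM (0.63, adjusted p = 0.0073).

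*Ttc39aos1* has no overlapping partner and starts 468 bases from *Ttc39a* on the other strand. It had 1.14, 1.34, 1.18 and 1.38 CPM in the WT libraries and 2.96, 2.77 and 2.39 CPM in the SCA7 libraries (log2 fold change 1.09, standard error 0.14, adjusted p = 1.1e-04). Every SCA7 library was above every WT library, and *Ttc39a* had a log2 fold change of 0.33 (adjusted p = 0.048), inside the FC limits.

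Among the remaining large increases, *Gm15857*, within the gene *Wdr66*, went from 1.63 ± 0.534 to 3.27 ± 0.523 CPM (1.00, adjusted p = 0.0054), and *Hectd2os*, opposite a ubiquitin ligase gene, from 1.02 ± 0.173 to 1.88 ± 0.545 CPM (0.90, adjusted p = 0.0072). *1700018L02Rik*, head to head with the mitochondrial adenylate kinase gene *Ak3*, went from 0.932 ± 0.211 to 1.47 ± 0.279 CPM (0.64, adjusted p = 0.034). The call of *1700018L02Rik* was lost without WT replicate 2 (adjusted p = 0.0741) and without each of SCA7 replicates 1, 2 and 3 (adjusted p of 0.16, 0.0501 and 0.0556).

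An overlapping protein-coding partner was found for 240 of the 259 transcripts. These were 235 different genes, since *Pi4kb*, *Ube4b*, *Ttyh1*, *Bcat1* and *Csl* each had 2 antisense transcripts, and these 10 transcripts are not independent in what their partner does. Both members were tested in 224 pairs, and in 16 the partner was too low to test. Per kb of exon, the antisense transcript had a median of 24.3% of the level of its partner in WT, and in 49 of the 224 pairs it was the higher of the 2. In counts the median was 6.53% of the partner, and 17 pairs were under 1%, down to 0.113% for *Gm16401*.

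In 59 of 224 pairs (26.3%) the ratio of antisense transcript to partner was lower in SCA7, and in 19 (8.48%) it was higher. The higher ratios numbered 12 without SCA7 replicate 1 and 11 without SCA7 replicate 2. The ratio was tested by limma on the log2 ratio of each library over all 2935 opposite-strand pairs of tested genes, with the limits of 0.7 and 1.3 on the ratio. Over those 2935 pairs, whose order is arbitrary, 19.3% changed in either direction, against 34.8% of the 224 pairs, and over the 741 pairs of any tested antisense gene with a protein-coding gene the ratio was lower in 15.0% and higher in 5.40%. The ratio of every SCA7 library was below that of every WT library in 74 of the 224 pairs and above it in 22, against 21.3% and 8.23% of the 741 pairs.

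**Figure D3:**
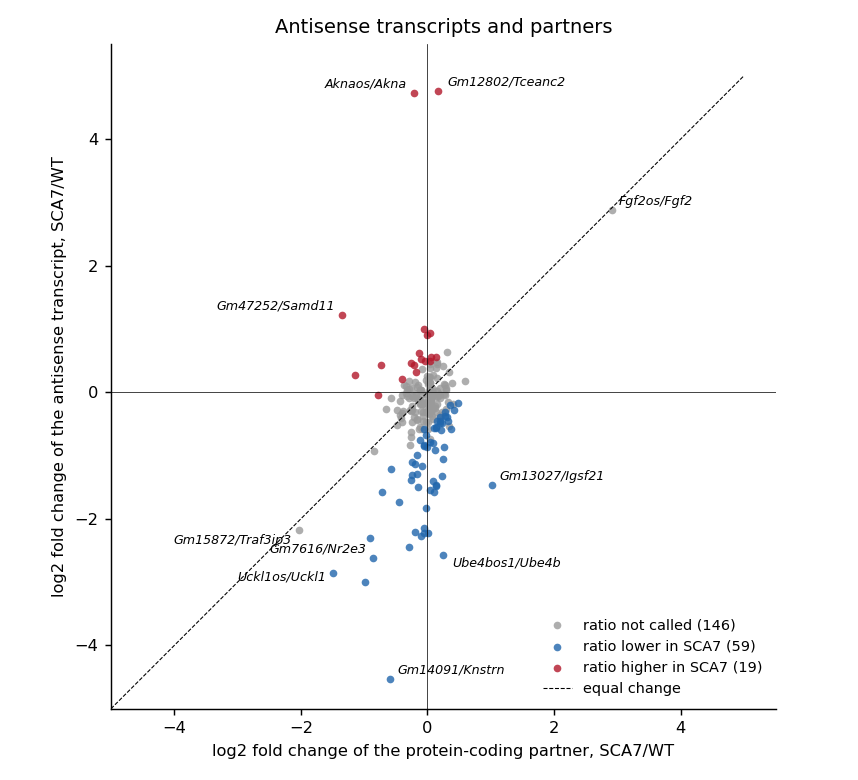
Log2 fold change (SCA7/WT) of the antisense transcript against that of its overlapping protein-coding partner, a point per pair (n = 224), with the dashed line where both are equal. Blue and red mark the 59 pairs with a lower and the 19 with a higher ratio in SCA7, and most of these spread along the vertical axis with the partner near 0.

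Of the 57 downregulated antisense transcripts with a tested partner, 47 had a partner that was not called, 9 a downregulated (15.8%) and 1 an upregulated partner. Of the 149 transcripts not called, 3 had a downregulated (2.01%) and 4 an upregulated partner, and 5.43% of protein-coding genes with at least 1 CPM were downregulated. The median log2 fold change of all 65 downregulated transcripts, which were selected by an FC below 0.7, was -1.15. For the partners of the 57, which were not selected by their change, it was -0.06. Of the 18 upregulated transcripts with a tested partner, 15 had a partner that was not called, with a median of 0.04 over the 18 partners. Across the 224 pairs, the log2 fold changes of the pair had a Spearman correlation of 0.12 and a Pearson correlation of 0.31, as a description, since both members share their libraries. The signs were equal in 125 pairs.

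The 9 pairs with both members downregulated were those of *Uckl1*, *Mylk*, *Nr2e3*, *Csmd1*, *Knstrn*, *Dgke*, *Pla2r1*, *Arhgap10* and *Traf3ip3*, named in full because they are few. With 1 CPM required in each genotype mean there were 4, those of *Uckl1*, *Pla2r1*, *Traf3ip3* and *Arhgap10*, and without an FC limit there were 18. In 7 of them the ratio of antisense transcript to partner was called lower, for example that of *Gm16346* to *Csmd1*, with a log2 change of -1.33 (standard error 0.19, adjusted p = 1.8e-04), and that of *Dgkeos* to *Dgke*, at -0.66 (standard error 0.20, adjusted p = 0.034). The ratio was not called for *Gm15872* and *0610038B21Rik*. *Gm15872* went from 6.64 ± 0.816 to 1.47 ± 0.166 CPM (log2 fold change -2.17, standard error 0.13, adjusted p = 4.4e-07) inside *Traf3ip3*, which had 39.5, 31.2, 35.1 and 32.9 CPM in WT and 6.76, 8.74 and 9.79 CPM in SCA7 (log2 fold change -2.03). The log2 ratio of this pair changed by -0.11 (standard error 0.13, adjusted p = 0.6), with overlapping groups.

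Both members were upregulated in 1 pair, that of *Fgf2os* and *Fgf2*, and in 0 pairs with at least 1 CPM in each genotype mean, since *Fgf2os* was below it in WT. There were 3 such pairs without an FC limit and 3 at a mean of 0.5 CPM. Opposite calls were found in 3 pairs, in 10 without an FC limit and in 6 at a mean of 0.5 CPM. *Gm47252*, inside *Samd11*, the gene of a photoreceptor protein of Polycomb repressor complexes, had 1.01, 1.36, 1.35 and 1.42 CPM in the WT libraries and 3.02, 3.30 and 2.72 CPM in the SCA7 libraries (log2 fold change 1.23, standard error 0.15, adjusted p = 7.6e-05), while *Samd11* had 304, 268, 234 and 298 CPM in WT and 93.2, 119 and 113 CPM in SCA7 (log2 fold change -1.35, adjusted p = 4.3e-06). Neither gene overlapped between genotypes, the antisense transcript held 1.11% of the counts of *Samd11*, and their log2 ratio rose by 2.57 (standard error 0.19, adjusted p = 9.3e-07).

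*Gm13027*, inside *Igsf21*, the gene of a synaptic adhesion protein, moved the other way round. It had 1.93, 1.68, 1.16 and 1.18 CPM in the WT libraries and 0.471, 0.621 and 0.515 CPM in the SCA7 libraries (log2 fold change -1.47, standard error 0.22, adjusted p = 4.4e-04), and *Igsf21* had 25.4, 29.4, 28.3 and 30.3 CPM in WT and 61.9, 57.7 and 53.6 CPM in SCA7 (log2 fold change 1.03). Every library again fell on its genotype's side for both genes, but *Gm13027* reached 1 CPM only in the WT mean.

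*G730003C15Rik*, at the 3′ end of *Mpp4*, the gene of a scaffold protein of photoreceptor synapses, had 3.45, 2.57, 3.15 and 2.46 CPM in the WT libraries and 4.14, 4.15 and 3.45 CPM in the SCA7 libraries (log2 fold change 0.43, standard error 0.14, adjusted p = 0.04). *Mpp4* had 455, 461, 393 and 447 CPM in WT and 244, 279 and 270 CPM in SCA7 (log2 fold change -0.73). The call of the antisense transcript was lost without WT replicate 2 or 4 and without SCA7 replicate 1 or 2, where the adjusted p was between 0.0815 and 0.137, and its counts were 0.951% of those of *Mpp4*. The log2 ratio of the pair rose by 1.16 (standard error 0.17, adjusted p = 2.3e-04).

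Among pairs with a called ratio, the 5 largest decreases were those of *Gm14091* (-3.97), *Ube4bos1* (-2.83), *Gm13027* (-2.43), *Gm17231* (-2.19) and *E130304I02Rik* (-2.18). The 5 largest increases were those of *Aknaos* (4.55), *Gm12802* (4.47), *Gm47252* (2.57), *A930016O22Rik* (1.25) and *G730003C15Rik* (1.16). The partner of *A930016O22Rik* is the muscle creatine kinase gene *Ckm*, at 0.523 ± 0.165 CPM in the 4 WT libraries and 0.239 ± 0.0187 CPM in the 3 SCA7 libraries (mean ± SD), and the summed muscle markers were between 2.25 and 3.53 CPM in WT and between 1.47 and 1.68 CPM in SCA7. *A930016O22Rik* itself was not called (0.28, adjusted p = 0.21), but without SCA7 replicate 3 it was called upregulated (0.46, adjusted p = 0.0349).

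**Figure D4:**
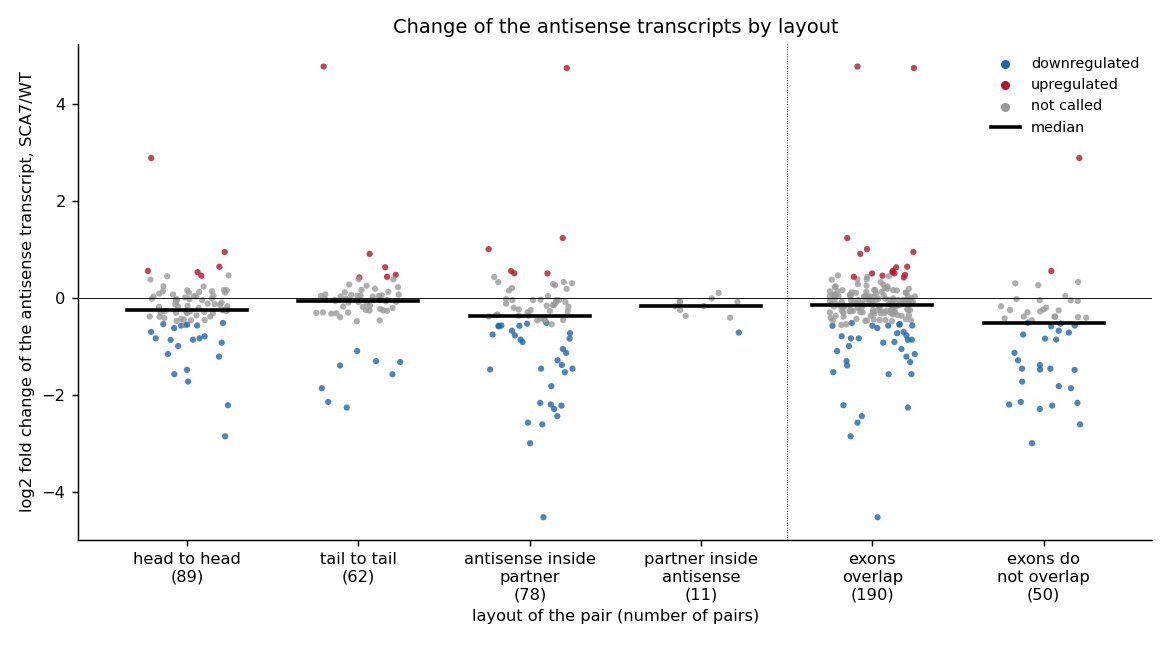
Log2 fold change (SCA7/WT) of the antisense transcripts with an overlapping partner, a point per transcript, by layout of the pair on the left of the dotted line and by overlap of exons on the right, with the median as a black bar. The same 240 transcripts appear on both sides, and the medians are lowest for transcripts inside their partner (-0.37) and for those without exon overlap (-0.53).

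Calls were also counted by how the transcripts lie on their partner, as a description without a test. Of 78 transcripts inside the partner's gene body, 31 were downregulated (39.7%) and 6 upregulated, with a median log2 fold change of -0.37. Head to head pairs, where the overlap holds both starts, numbered 89, with 21 antisense transcripts downregulated (23.6%), 6 upregulated and a median of -0.26. Tail to tail pairs, where the overlap holds both ends, numbered 62, with 8 downregulated (12.9%), 6 upregulated and a median of -0.06. In 11 pairs the partner lay inside the antisense gene, and 1 of these transcripts was downregulated. Medians of the partners were between -0.08 and 0.03 in all 4 layouts. Among transcripts with at least 1 CPM in each genotype mean, 19 of 62 inside the partner, 12 of 73 head to head, 7 of 58 tail to tail and 0 of 10 around their partner were downregulated.

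Where the exons of the pair shared no bases, 26 of 50 antisense transcripts were downregulated (52.0%) with a median of -0.53, and where they overlapped, 35 of 190 (18.4%) with a median of -0.14. Within the transcripts lying inside their partner, 21 of the 34 without and 10 of the 44 with exon overlap were downregulated. With at least 1 CPM in each genotype mean, 15 of 38 transcripts without and 23 of 165 with exon overlap were downregulated. These shares describe the list and were not tested. The ratio was lower in 23 of the 43 tested pairs without and in 36 of the 181 with exon overlap, and with at least 1 CPM in each genotype mean in 13 of 32 and 29 of 157. Of the 19 transcripts without an overlapping partner, 4 were downregulated and 2 upregulated, and 15 had a protein-coding start of the other strand within 5 kb, of which 1, *Hpdl* beside *Gm12996*, was called (log2 fold change -1.27 against -1.56 for *Gm12996*).

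Reads of a gene on the same strand could also be counted for an antisense transcript. Of the 259, 4 overlapped a protein-coding gene on their own strand, of which 1 was downregulated, and 19 had such a gene ending within 5 kb upstream, of which 2 were downregulated. The other 62 downregulated and all 20 upregulated transcripts had neither.

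Imprinted and retinal antisense transcripts were listed from textbook knowledge. Of the 6 imprinted noncoding transcripts listed, *Kcnq1ot1* and *Airn* were among the 259, and neither was called. *Kcnq1ot1*, which silences genes around *Kcnq1*, had 89.4, 65.0, 67.0 and 75.3 CPM in the WT libraries and 65.2, 68.3 and 62.3 CPM in the SCA7 libraries (log2 fold change -0.19, standard error 0.10, adjusted p = 0.19). Its groups overlapped. *Airn*, which silences *Igf2r*, had 2.16 ± 0.323 CPM in the 4 WT libraries and 1.64 ± 0.159 CPM in the 3 SCA7 libraries (mean ± SD) (log2 fold change -0.40, adjusted p = 0.069). *Igf2r* had a log2 fold change of 0.30 (adjusted p = 0.01), inside the FC limits, and the log2 ratio of *Airn* to *Igf2r* changed by -0.69 (standard error 0.16, adjusted p = 0.0078).

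Of the 15 transcripts listed beside developmental regulators, 3 were among the 259. *Vax2os* is given above and was downregulated. *Pax6os1*, opposite the eye regulator *Pax6*, had 8.28 ± 1.54 CPM in the 4 WT libraries and 6.70 ± 0.689 CPM in the 3 SCA7 libraries (mean ± SD) (log2 fold change -0.30, adjusted p = 0.12), with *Pax6* at -0.25. *Zeb2os*, opposite the zinc finger gene *Zeb2*, had 1.47 ± 0.241 CPM in the 4 WT libraries and 1.32 ± 0.104 CPM in the 3 SCA7 libraries (mean ± SD) (-0.15, adjusted p = 0.53). *Gm12660*, inside *Grm6*, the glutamate receptor gene of ON bipolar cells, stayed at -0.14 (adjusted p = 0.53), while *Grm6* had a log2 fold change of -0.43 (adjusted p = 0.0038), inside the FC limits.

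**Figure D5:**
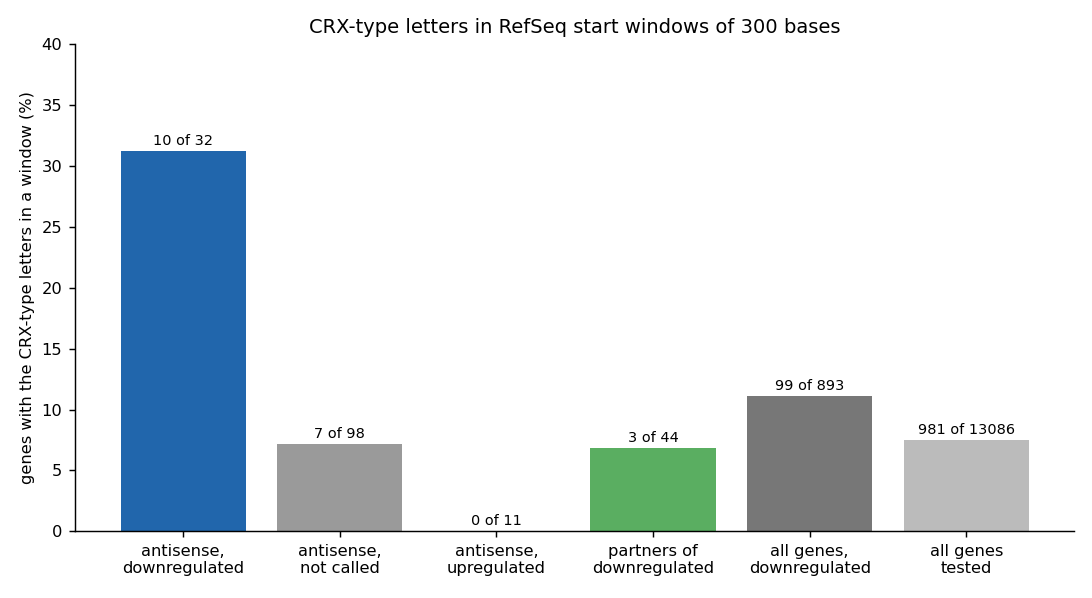
Share of genes with TAATCC or its reverse complement in at least 1 RefSeq start window of 300 bases, with the number of genes above each bar. Downregulated antisense transcripts have 10 of 32, upregulated ones 0 of 11, and all genes tested 981 of 13086.

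RefSeq start windows were matched by symbol for 141 of the 259 transcripts, 32 of them downregulated, 11 upregulated and 98 not called. Letters TAATCC, searched on both strands, were found in 10 of the 32 downregulated transcripts (31.2%), in 0 of the 11 upregulated and in 7 of the 98 not called (7.14%). The share was 7.50% of all 13086 genes tested with a window, 11.1% of the 893 downregulated genes of any kind with a window and 14.3% of 35 downregulated lincRNAs with at least 1 CPM. Among the partners of the downregulated transcripts it was 6.82% (3 of 44), and 7.06% of all 32851 windows of the RefSeq table held these letters. RefSeq starts can lie away from the start of the counted gene, so that a window need not hold the start of the counted transcript. Among transcripts with the letters, the distance was 2967 bases for *A230072E10Rik*, 1109 and 1171 for *Gm30893* and 413 for *Gm12996*. It was 2245 bases for the window of *Gm11961* that held 3 matches. Some downregulated transcripts without the letters had larger distances, for example 136985 bases for *Gm9750* and 38853 for *Gm11342*. With RefSeq starts within 100 bases of the GENCODE start, a limit chosen after seeing the data, the letters were found in 7 of 19 downregulated transcripts (36.8%), 0 of 6 upregulated, 5 of 63 not called (7.94%) and 6.13% of all 9621 genes tested. By windows rather than genes, 12 of the 40 windows of downregulated antisense transcripts held them (30.0%).

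Those 10 transcripts were *E130304I02Rik*, *Gm11961*, *Gm12996*, *Pitpnm2os2*, *A930041C12Rik*, *Dbhos*, *Gm16104*, *A230072E10Rik*, *Gm30893* and *AI847159*, named after their windows were searched. In the printed windows the letters began 54 bases before the RefSeq start of *E130304I02Rik*, 125 before that of *Pitpnm2os2*, 25 before that of *A930041C12Rik* and 20 before that of *AI847159*. *Pitpnm2os2*, within the phosphatidylinositol transfer gene *Pitpnm2*, had 35.8, 27.2, 19.5 and 27.8 CPM in the WT libraries and 9.23, 11.0 and 9.41 CPM in the SCA7 libraries (log2 fold change -1.48, standard error 0.19, adjusted p = 6.4e-04). *A930041C12Rik*, within *Rpap2*, had 8.30, 7.37, 8.87 and 7.75 CPM in the WT libraries and 3.33, 2.77 and 3.15 CPM in the SCA7 libraries (log2 fold change -1.39, standard error 0.11, adjusted p = 2.5e-06). For both, all SCA7 libraries were below all WT libraries.

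A second motif, TGCTGA, the core letters of the response element of the rod factor NRL, was also searched on both strands, and its letters cannot overlap a match of TAATCC. It was found in 10 of the 32 downregulated (31.2%), 2 of the 11 upregulated and 17 of the 98 transcripts not called (17.3%), against 19.4% of all genes tested with a window and 19.5% of all windows. A match is a stretch of letters, and binding was not measured in these libraries. The printed window of *Vax2os* held neither motif, and RefSeq windows of *Gm14091* and *Gm12802* were not analysed here.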

How the data were processed

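Total RNA of 2 retinas per mouse (4 WT, 3 SCA7) was sequenced as stranded single reads. The authors mapped the reads to mm10 with TopHat2 2.0.14 and Bowtie2 2.1.0 and made a count for each Ensembl gene using HTSeq 0.6.1, per the labels, and deposited raw counts without normalization. The strand option of the counting is not given in the sources used here.

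Biotypes, exons and symbols came from GENCODE M21, which covered 52403 of 52550 genes. The authors counted on an earlier Ensembl release, so membership, exon overlap and levels per kb can differ from the annotation behind the counts. From the counts, genes passing filterByExpr were compared with edgeR 4.0.16 (TMM, robust glmQLFit, quasi-likelihood test, no covariates), and p-values were adjusted by Benjamini-Hochberg over every gene in the test. CPM per library are TMM-normalized, whereas the limit of 1 CPM used library totals. Pairs were tested with limma 3.58.1 on log2 ratios of CPM with a prior count of 2. R was 4.3.3, and DESeq2 1.42.0 served as an alternative. The edgeR, DESeq2, limma-voom and pair ratio fits were tested on simulated counts. The choice of members and partners, the layouts, the strand checks and the motif search were not. Libraries are from separate mice, so the tests weigh the genotype difference against the variation between mice, estimated with information shared across genes. At these depths 1 count equals between 0.0103 and 0.0177 CPM.

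The partner was the protein-coding gene of the other strand with the longest exon overlap, or else the longest body overlap. Named were the 10 most abundant transcripts, the 10 largest called decreases and increases without overlap of the genotypes, the 5 largest called changes of ratio in each direction, listed transcripts and partners, opposite calls and the transcripts at the 1 CPM limit. The members, lists and tests were chosen with earlier results of these data known.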

Additional observations from a re-analysis of the deposited data

How the results depend on the processing

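The count of 65 downregulated transcripts was 64 with DESeq2 size factors, 66 with the DESeq2 Wald test and 64 with limma-voom, and became 37 at a mean of at least 2 CPM and 41 at 1 CPM in each genotype mean, both of which leave fewer transcripts. Each library left out in turn gave 53 to 68 downregulated and 15 to 21 upregulated transcripts, 48 to 60 lower and 11 to 25 higher ratios, 8 to 9 pairs with both members down, 1 with both up and 2 to 3 in opposite directions. The 19 higher ratios became 12 without SCA7 replicate 1, 11 without SCA7 replicate 2 and 10 at an adjusted p under 0.01, and the 59 lower ratios were 36 among pairs whose exons overlap. Pairs with both members down (9) were 18 without an FC limit, 4 at 1 CPM in each genotype mean and 5 with exon overlap. Pairs with both up (1) were 3 without an FC limit and at a mean of 0.5 CPM, and 0 at 1 CPM in each genotype mean or with exon overlap. Opposite calls (3) were 10 without an FC limit and 6 at 0.5 CPM.

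Replicate numbers were not taken to pair the mice. No label names a shared litter or batch, although the mouse numbers in the titles are close within each number, and same-numbered WT and SCA7 libraries had correlations of 0.0011, 0.34 and 0.13 in their deviations. Not every SCA7 library correlated best with the WT library of its own number. With the replicate block, 69 transcripts were downregulated, 21 upregulated, and 69 ratios lower and 18 higher. Of the named transcripts, the block changed the calls of *1110002L01Rik*, then downregulated (-0.54), and of *G730003C15Rik*, then not called (0.36, inside the FC limits). Of the named transcripts, 4 that were not called changed sign near 0. *D830035M03Rik* had -0.0085 with the block, and between -0.0082 and 0.10 over the fits without each library. In those fits *4933431E20Rik* lay between -0.0072 and 0.053, *Tug1* between -0.043 and 0.069 and *Rab10os* between -0.019 and 0.051. Where not named as fewer transcripts or pairs, the cause was not tested. With at least 10 counts in every library, *Aknaos* and *Gm12802* gave no value.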

Other observations

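In 4 pairs chosen after their values were seen, the partner was called, the antisense transcript was not, and the ratio of the pair was called. Among them *A930016O22Rik* and *Ckm* are given above, and *A930016O22Rik* was called upregulated when SCA7 replicate 3 was left out. Opposite the neuronal adhesion gene *Icam5*, *Gm26592* had 1.55 ± 0.0700 CPM in the 4 WT libraries and 1.50 ± 0.135 CPM in the 3 SCA7 libraries (mean ± SD, log2 fold change -0.05), while its partner *Icam5* changed by -0.79 (adjusted p = 0.0096), with a change of the log2 ratio of 0.72 (standard error 0.19, adjusted p = 0.015). Opposite *Lsr*, the gene of a lipoprotein receptor of tricellular junctions, *Gm4673* had 7.55 ± 0.946 CPM in the 4 WT libraries and 6.74 ± 0.325 CPM in the 3 SCA7 libraries (mean ± SD, log2 fold change -0.16), while its partner *Lsr* changed by 0.49 (adjusted p = 0.0053), with a change of the log2 ratio of -0.65 (standard error 0.13, adjusted p = 0.0022). Opposite *Tapbp*, the gene of tapasin, which loads peptides onto MHC class I, *Gm19412* had 2.49 ± 0.107 CPM in the 4 WT libraries and 2.06 ± 0.185 CPM in the 3 SCA7 libraries (mean ± SD, log2 fold change -0.27), while its partner *Tapbp* changed by 0.41 (adjusted p = 9.0e-05), with a change of the log2 ratio of -0.69 (standard error 0.14, adjusted p = 0.0025).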
